A study of Mus musculus with 26 samples.

Results

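On the standard diet, colon samples of day 70 of AOM–DSS carried more RNA of the EGFR ligands *Areg*, *Ereg* and *Hbegf* and of *Egfr* than untreated samples. On the GW3965 diet this was called for *Hbegf* and *Egfr*. Each of the standard diet calls was lost in some fits that left out a single sample. The 10 genes described here are 6 ligands (*Areg*, *Ereg*, *Hbegf*, *Tgfa*, *Btc* and *Egf*), the receptors *Egfr*, *Erbb2* and *Erbb3*, and *Lrig1*, a negative regulator of these receptors. They were chosen by name, with earlier results of these data known, from the 35975 genes with transcripts in the deposited tables. Of these members, 10 of 10 passed the filter on low counts that kept 17063 genes for testing.

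EGFR ligands are made as transmembrane precursors and are released when proteases of the ADAM family cut them. The released ligand binds EGFR, or ERBB4 for some of them, and the receptor pairs with itself or with ERBB2, which has no known ligand, or ERBB3, which binds neuregulins and has a weak kinase of its own. The pairs signal through RAS–MAPK and PI3K, and in the intestine this pathway drives crypt cell division, repair of the epithelium after injury and growth of tumours, whereas LRIG1 lowers receptor levels and marks crypt stem and progenitor cells.

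RNA-seq was run on 26 colon samples of wild-type male C57BL/6J mice from Taconic that started at about 10 weeks of age. The mice ate a standard diet or a diet with GW3965, a synthetic agonist of the liver X receptors (LXR), which are nuclear receptors that sense oxysterols. Samples of days 22, 43 and 70, with 3 per diet and day, came after an injection of the carcinogen azoxymethane (AOM, 10 mg/kg) and cycles of dextran sulfate sodium (DSS) in the drinking water, which damages the colonic epithelium; the cycles held 7 days of DSS each and there were 3 by the end of the course. Day 0 samples, 4 per diet, had neither AOM nor DSS but had been on their diet for 22 days (2 samples) or 43 days (2 samples). According to the paper, biopsies for RNA came from the distal colon, at the areas of tumours. It reports no visible tumours at day 22, tumours almost only on the standard diet at day 43, and tumours on both diets at day 70. Tumour content can thus differ by day and diet, and its part in the differences below was not tested. On each diet the labels give 1 cage for days 22 and 43 together and another for day 0, whereas each sample of day 70 had its own, so at days 0, 22 and 43 diet and cage cannot be told apart, and neither can AOM–DSS and cage in the comparisons of later days with day 0. The step from day 43 to day 70 sets 1 shared cage against separate cages, so day and cage cannot be told apart there either. The reporting summary of the study states that animals were pooled for bulk RNA-seq, whereas a figure legend gives 3 to 4 mice per timepoint. The labels do not mention pools, so the p-values below measure the spread between these samples, which may not be that between single mice.

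Total counts were between 18195345 and 41522204 per sample (median 20424701). The RNA integrity number was 9.1 or more at days 0, 22 and 70 and between 2.6 and 9.3 at day 43, and the share of counts on 88 ribosomal protein genes was between 14.4% and 18.6% (standard diet) and between 10% and 17.6% (GW3965 diet) at day 43, against a range of 3.96% to 10.7% at the other days. *Abca1* and *Abcg1*, cholesterol transporters that LXR induces, separated the diets at every day: at day 0 *Abcg1* was between 7.38 and 13.3 CPM (counts scaled to library size) on the standard diet and between 74 and 89.3 CPM on GW3965. One day 0 sample (GW3965 diet, 43 days, replicate 2) carries a diet label that contradicts its title; it was placed by its title, and its *Abca1* (151 CPM) and *Abcg1* (76.5 CPM) lay in the range of the GW3965 samples. All 7 epithelial markers were detected in every group. The 13 markers of stratified squamous epithelium, the lining of skin and anus and not of colon, were between 8.65 and 30.2 CPM in sum at days 0 and 22, with *Sprr3*, *Ivl* and *Krt6a* at 0 at day 0. Their sum was between 3587 and 5727 CPM in the standard diet samples of day 70, and 32020, 8.99 and 14110 CPM in the GW3965 samples of day 70 in replicate order, and replicate 1 of these also held 21810 CPM of 8 skeletal muscle markers. In bulk tissue, fewer cells of a type and less RNA per cell cannot be told apart.

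The sequences before the starts of 3 members are shown because they belong to the most abundant ligand (*Areg*), to a ligand that rose from day 43 to day 70 on both diets (*Tgfa*) and to the receptor of both (*Egfr*). They are the 250 bases before the RefSeq start on GRCm38.p6, 5′ to 3′ on the + strand, at chr5:91139349-91139598, chr6:86194972-86195221 and chr11:16751953-16752202, with matches to the motifs searched for in capitals.
*Areg*: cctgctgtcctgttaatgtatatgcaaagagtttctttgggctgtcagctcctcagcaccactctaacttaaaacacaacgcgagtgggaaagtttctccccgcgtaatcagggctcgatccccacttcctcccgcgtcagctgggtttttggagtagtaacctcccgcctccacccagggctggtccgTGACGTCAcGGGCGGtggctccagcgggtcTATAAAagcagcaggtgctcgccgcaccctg
*Tgfa*: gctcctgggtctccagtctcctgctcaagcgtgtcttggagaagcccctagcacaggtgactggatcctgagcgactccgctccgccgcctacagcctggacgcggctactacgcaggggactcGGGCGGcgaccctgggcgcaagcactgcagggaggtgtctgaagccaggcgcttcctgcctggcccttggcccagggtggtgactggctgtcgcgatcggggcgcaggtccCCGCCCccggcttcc
*Egfr*: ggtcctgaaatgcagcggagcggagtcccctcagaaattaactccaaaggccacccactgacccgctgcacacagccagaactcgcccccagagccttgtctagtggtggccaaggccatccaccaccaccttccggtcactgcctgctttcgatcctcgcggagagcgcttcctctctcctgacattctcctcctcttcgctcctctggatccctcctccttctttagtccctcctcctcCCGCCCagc
RefSeq promoters were at hand for 7 of the 10 members (*Egf* has 2), not for *Ereg*, *Hbegf* or *Erbb3*. Both strands were searched for a TATA box (TATAAA), a GC box (GGGCGG), a cAMP response element (TGACGTCA), an AP-1 element (TGANTCA), a TCF/LEF element (CTTTGAT) and the DR4 element of LXR, a direct repeat of its recognition site with a 4-base spacer. In *Areg* the matches were a cAMP response element 61 to 54 bases before the start, a GC box at 52 to 47 and a TATA box at 31 to 26, with no overlap between them. *Tgfa* had a GC box at 126 to 121 and another on the opposite strand at 15 to 10, and *Egfr* had a GC box on the opposite strand at 9 to 4. *Lrig1* had 2 GC boxes, and *Egf*, *Btc* and *Erbb2* had no match to any of these letters. Of 32851 promoters of this length, 12.4% held TATAAA, 32.7% GGGCGG, 1.55% TGACGTCA, 6.75% TGANTCA, 3.21% CTTTGAT and 0.0152% the DR4 element. The GC content was 57.2% in *Areg*, 69.2% in *Tgfa* and 60.8% in *Egfr*, against a median of 52.4% over all promoters.

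Compared per length, in TPM (kallisto's transcript abundance, scaled to the same total in each sample), the receptors *Erbb2* and *Erbb3* and the regulator *Lrig1* were the most abundant of the 10 in untreated colon and *Egf* the least. On the standard diet at day 0 the mean level was 43.2 ± 6.67 TPM for *Lrig1*, 42.9 ± 20.7 for *Erbb3* and 35 ± 11.3 for *Erbb2* (SD, n = 4). These neighbours did not differ beyond their spread. *Areg* followed with 15.9 ± 8.82 TPM, and *Tgfa* (7.95), *Hbegf* (6.92), *Btc* (6.79) and *Egfr* (6.22) had overlapping ranges. *Ereg* had 3.26 ± 1.47 TPM and *Egf* 1.36 ± 0.91. The GW3965 samples of day 0 had the same 3 genes on top and the same 2 at the bottom, with *Areg* at 20.2 ± 13.9 TPM. By day 70 *Areg* was at 55.6 ± 25.7 TPM on the standard diet, the highest mean of the 10, and at 41.3 ± 10.7 TPM on GW3965, after *Erbb3* at 45 ± 21.9 TPM (n = 3).

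**Figure D1:**
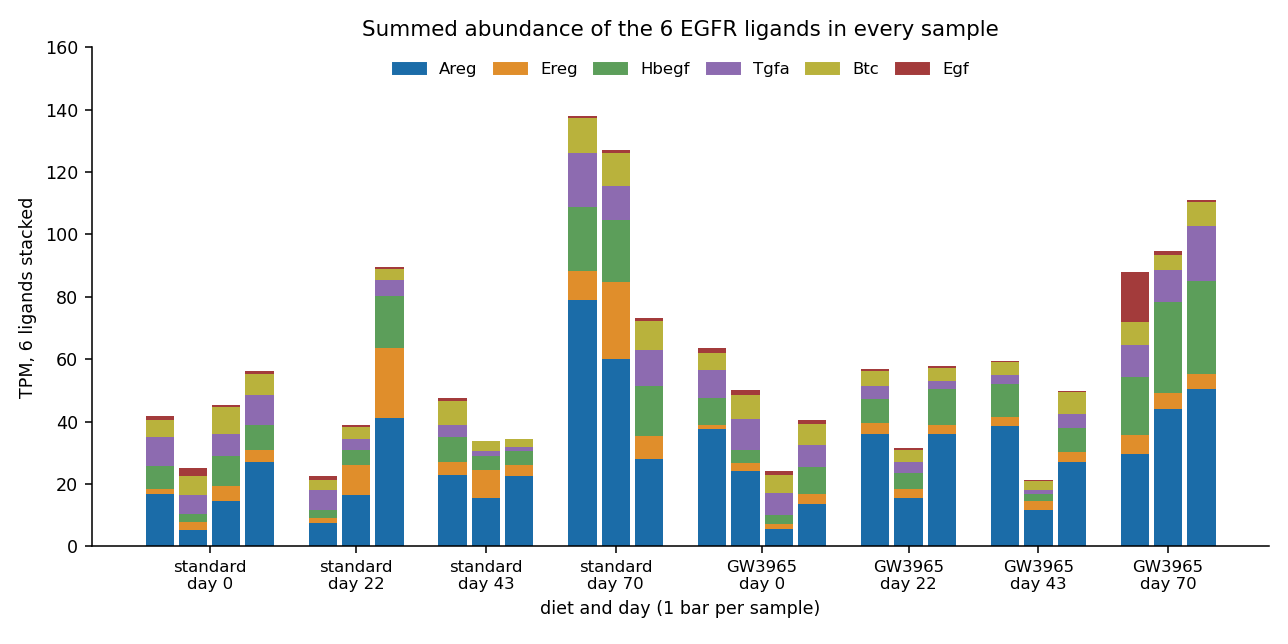
Summed TPM of the 6 ligands (*Areg*, *Ereg*, *Hbegf*, *Tgfa*, *Btc*, *Egf*) in each sample, by diet and day. The 6 samples of day 70 lie between 73.3 and 138 TPM, and the 8 samples of day 0 between 24.1 and 63.6 TPM.

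Added up, the 6 ligands gave 42.1 ± 12.9 TPM on the standard diet on day 0, 50.3 ± 34.9 on day 22, 38.6 ± 7.63 on day 43 and 112.8 ± 34.6 on day 70. On the GW3965 diet the sum was 44.6 ± 16.7, 48.7 ± 14.8, 43.5 ± 19.9 and 97.9 ± 11.9 TPM at the same days. The samples of day 70 did not overlap with those of day 0 on either diet. *Areg* was the most abundant ligand per length in 24 of 26 samples, with between 21.3% and 65.3% of the sum in any sample, and the exceptions were 1 standard diet sample of day 0 (*Btc* first, 24.5%) and 1 GW3965 sample of day 0 (*Tgfa* first, 29%). *Ereg* made up 6.81%, 25% and 25.4% of the sum in the standard diet samples of day 22 and 5.79%, 9.15% and 5.01% in those of GW3965, and *Hbegf* 14.9%, 15.7% and 21.8% against 21.2%, 30.8% and 26.8% at day 70. The diets overlapped in both shares, and no difference in the mix was tested. TPM values of day 43 are relative to the many short ribosomal protein transcripts there, so the comparisons below use counts.

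Between days, genes were tested within each diet, with calls at an adjusted p (edgeR quasi-likelihood F-test, Benjamini-Hochberg over 17063 genes) below 0.05. On the standard diet, 2 of 10 members passed from day 0 to day 22, where 9.55% of all genes did, and 3 of 10 from day 22 to day 43 (33.7%). From day 43 to day 70, 4 of 10 passed (49.7%), all higher (23% of all genes were), and day 70 against day 0 gave 4 of 10 (30.3%), again all higher (16.7%). On the GW3965 diet the counts were 3 of 10, all lower, on day 22 against day 0 (20.7%, with 7.05% lower), 6 of 10, all higher, on day 70 against day 43 (39.2%, with 21.3% higher) and 3 of 10 on day 70 against day 0 (21.5%). From day 22 to day 43 on GW3965, 0 of 10 passed in edgeR (0.264% of all genes) and 0 in DESeq2, with 1 member, *Lrig1*, and 18.1% of all genes at an unadjusted p below 0.05. Counted in either direction, these shares differed from those of all genes by about 2 members of 10 or fewer. The median log2 fold change of the members at day 70 against day 0 was 0.63 on the standard diet and 0.83 on GW3965, where the median of all genes was 0.04 and 0.11. Comparisons with day 0 share the day 0 samples of their diet. The samples of day 70 had 70 days of diet and those of day 0 had 22 or 43. AOM–DSS therefore cannot be told apart from time on the diet and age in that comparison.

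**Figure D2:**
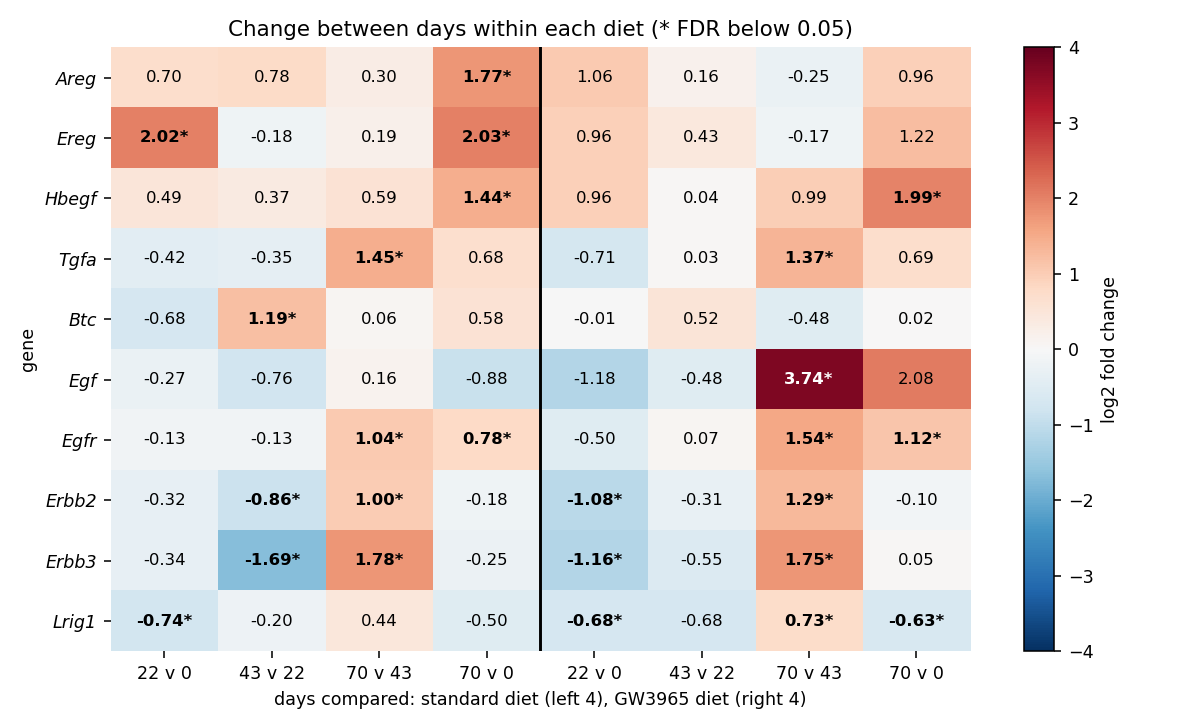
Log2 fold change of the 10 members between days within each diet, from edgeR, as a colour map with each value printed. Bold values with an asterisk passed an adjusted p of 0.05. *Egfr* and *Hbegf* were higher at day 70 than at day 0 on both diets.

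Members whose samples did not overlap between the 2 days numbered 7 of 10 on the standard diet and 5 of 10 on GW3965 at day 70 against day 0, where 43.1% and 31.3% of all genes did not overlap. At day 22 against day 0 the counts were 2 of 10 (26.9% of all genes) on the standard diet and 7 of 10 (48.2%) on GW3965. The neighbouring steps gave 2 of 10 (40.4%) and 4 of 10 (26.3%) from day 22 to day 43, and 3 of 10 (48.8%) and 6 of 10 (43.8%) from day 43 to day 70, standard diet first.

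The steps into and out of day 43 moved with gene length. In the 4266 tested genes with the longest transcripts, the median log2 fold change was -0.41 from day 22 to day 43 and 0.36 from day 43 to day 70 on the standard diet, against 0.69 and -0.93 in the 4266 with the shortest. On GW3965 the longest genes had -0.34 at day 22 against day 0 and 0.76 at day 70 against day 43, and the shortest 0.48 and -0.88. *Ereg*, *Tgfa*, *Egfr*, *Erbb2*, *Erbb3* and *Lrig1* are among the longest, *Areg* (974 bases effective length) among the shortest. With the ribosomal protein share as a term, 0 of 17063 genes passed in either step into or out of day 43 on the standard diet or from day 43 to day 70 on GW3965, and the days of these steps did not overlap in that share. With the RNA integrity number as the term, 2, 6 and 6 members passed in these 3 steps. At day 70 against day 0 the medians of the 4 length groups, from the shortest to the longest, were 0.07, 0.11, 0.09 and -0.08 on the standard diet and -0.01, 0.08, 0.16 and 0.16 on GW3965, a narrower range that ran upward with length on GW3965.

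**Figure D3:**
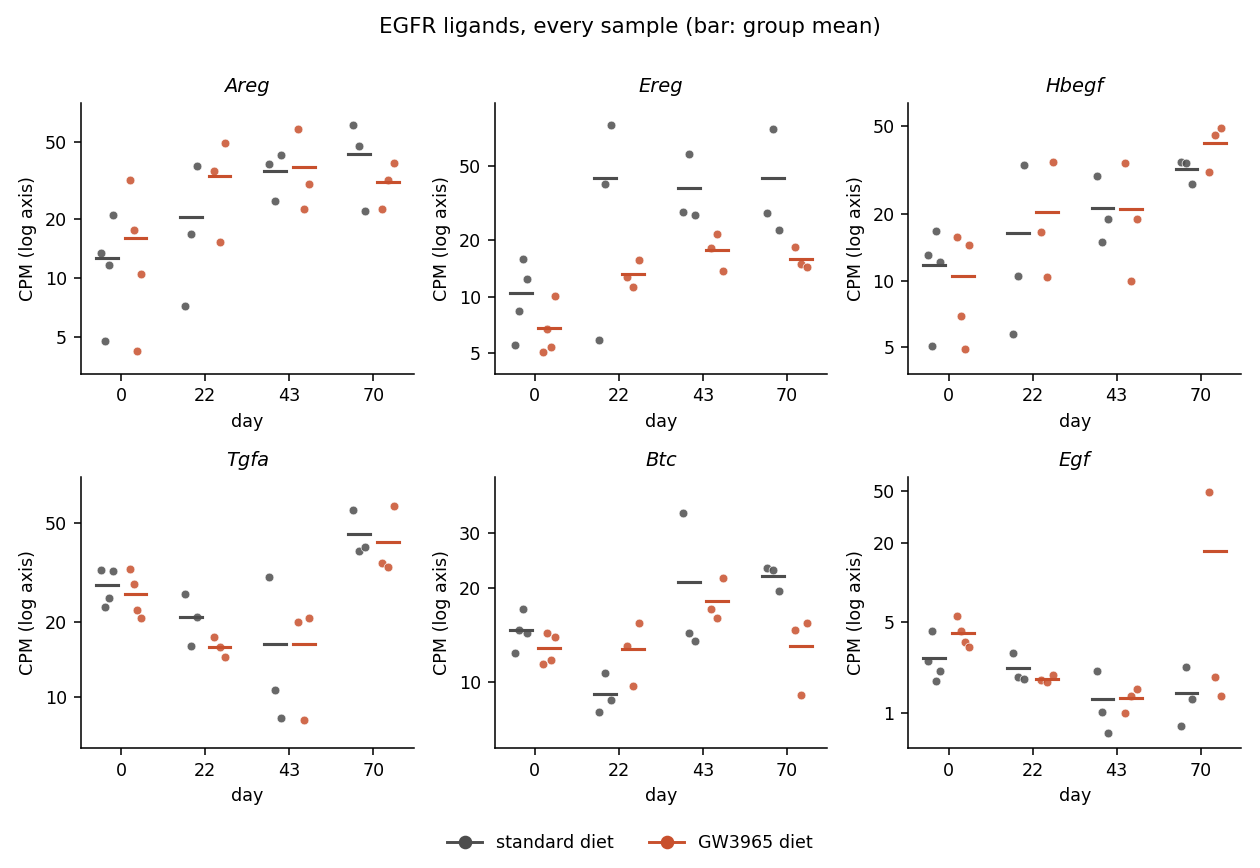
CPM of each ligand in each of the 26 samples by diet and day, with the group mean, on a log scale. *Areg*, *Ereg* and *Hbegf* of the standard diet lie above the day 0 samples of that diet at day 70, and 1 GW3965 sample of day 70 stands apart for *Egf*.

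Amphiregulin, encoded by *Areg* (ENSMUSG00000029378.5, GRCm38 chromosome 5, 91139599 to 91148432, + strand), is a low-affinity EGFR ligand made by epithelium and by immune cells during repair. On the standard diet it had 13.4, 4.72, 11.7 and 20.9 CPM on day 0 (samples of 22 days of diet first), 7.2, 16.9 and 37.6 on day 22, 38.3, 24.9 and 42.7 on day 43 and 60.5, 47.7 and 22.0 on day 70. On GW3965 it had 31.8, 17.5, 4.19 and 10.4 CPM on day 0, 35.2, 15.2 and 49.3 on day 22, 58.2, 22.6 and 30.3 on day 43 and 22.4, 31.9 and 38.8 on day 70. The standard diet samples of days 43 and 70 all lay above those of day 0, whereas the GW3965 groups overlapped because 1 day 0 sample had 31.8 CPM. *Areg* was 3.42 times higher in mean CPM at day 70 than at day 0 on the standard diet (log2 fold change 1.77, SE 0.596, adjusted p = 0.0282, edgeR) and had a log2 fold change of 0.96 (SE 0.591, adjusted p = 0.262) on GW3965. The standard diet call passed without the day 0 sample of 43 days, replicate 2, or without day 70 replicate 3, and it did not pass without any of the other 5 samples, with log2 fold changes of 1.44 to 1.80. No step between neighbouring days passed on either diet.

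Epiregulin (*Ereg*, ENSMUSG00000029377.5, chromosome 5, 91074622 to 91093646, + strand) binds EGFR and ERBB4 and lies beside *Areg*. Its standard diet values were 5.51, 8.40, 15.9 and 12.4 CPM on day 0, 5.86, 40 and 82.8 on day 22, 28.3, 57.7 and 27.4 on day 43 and 28.0, 78.9 and 22.7 on day 70. The GW3965 values were 5.06, 6.75, 5.43 and 10.0 CPM on day 0, 12.8, 11.3 and 15.8 on day 22, 18.2, 21.6 and 13.8 on day 43 and 18.5, 14.9 and 14.4 on day 70. Single samples of the standard diet were high, at 82.8, 57.7 and 78.9 CPM, while on GW3965 no sample was above 21.6 CPM and all 9 samples of days 22 to 70 were above the 4 of day 0. *Ereg* rose by day 22 on the standard diet (log2 fold change 2.02, SE 0.553, adjusted p = 0.0224, edgeR) and was higher there at day 70 than at day 0 (2.03, SE 0.552, adjusted p = 0.0084). The first of these calls was lost when 1 of 5 samples was left out, at the lowest without day 22 replicate 3 (1.12, adjusted p = 0.291), and the second was lost without day 70 replicate 2 (1.25, adjusted p = 0.115). On GW3965 the log2 fold change was 0.96 (SE 0.553, adjusted p = 0.219) at day 22 and 1.22 (SE 0.552, adjusted p = 0.119) at day 70.

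Several marker lists varied with these neighbours. The summed neutrophil markers were between 96.3 and 245 CPM at day 0 and between 842.6 and 12750 CPM at day 43. At day 70 they were between 358 and 717 CPM on the standard diet. The GW3965 samples of day 70 had 1073, 279.9 and 1258 CPM in replicate order. Over the 26 samples, which share libraries and the course over days, *Ereg* correlated in log2 CPM with the neutrophil (0.635), fibroblast (0.63), absorptive colonocyte (-0.622) and squamous markers (0.508). *Areg* correlated with the smooth muscle (-0.618), neutrophil (0.595), enteric neuron and glia (-0.573) and squamous markers (0.524). The part of these cells in the rise of either ligand was not tested.

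Heparin-binding EGF-like growth factor (*Hbegf*, ENSMUSG00000024486.6, chromosome 18, 36504927 to 36515805, - strand), which binds EGFR and ERBB4, was higher at day 70 on both diets. On the standard diet it had 13, 5.05, 16.9 and 12.2 CPM on day 0, 5.75, 10.5 and 33.3 on day 22, 29.8, 14.9 and 19 on day 43 and 34.5, 34.0 and 27.5 on day 70. On GW3965 it had 15.8, 6.97, 4.94 and 14.6 CPM on day 0, 16.6, 10.4 and 34.6 on day 22, 34.3, 9.94 and 19.1 on day 43 and 31.1, 45.6 and 49.0 on day 70. Every day 70 sample was above every day 0 sample of its diet, and the groups of days 22 and 43 spanned both ranges. The log2 fold change at day 70 against day 0 was 1.44 on the standard diet (SE 0.538, adjusted p = 0.0467, edgeR) and 1.99 on GW3965 (SE 0.542, adjusted p = 0.012). The standard diet call passed without the day 0 sample of 43 days, replicate 1, and was lost without any of the other 6 samples (1.19 to 1.53) and in 8 of 12 other alternatives, and the GW3965 call held without each of its 7 samples in turn (1.75 to 2.25). The GW3965 call was lost in 2 of 12 other alternatives, against the day 0 samples of 22 days of diet alone (1.88, adjusted p = 0.104) or of 43 days alone (2.10, adjusted p = 0.0659). Over the 26 samples *Hbegf* correlated with the smooth muscle (-0.695), enteric neuron and glia (-0.602) and squamous markers (0.573). In the GW3965 samples of day 70 the squamous markers were at 32020, 8.99 and 14110 CPM beside the 31.1, 45.6 and 49.0 CPM of *Hbegf*, and their part in its rise was not tested.

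Transforming growth factor alpha (*Tgfa*, ENSMUSG00000029999.14, chromosome 6, 86195223 to 86275719, + strand), a high-affinity EGFR ligand of epithelial cells, was lowest at days 22 and 43 and highest at day 70. Its standard diet values were 32.5, 22.9, 25 and 31.9 CPM on day 0, 26, 16 and 20.9 on day 22, 30.2, 10.7 and 8.25 on day 43 and 56.6, 38.7 and 40 on day 70. Its GW3965 values were 32.8, 28.3, 22.4 and 20.7 CPM on day 0, 17.4, 15.9 and 14.5 on day 22, 19.9, 8.12 and 20.8 on day 43 and 34.5, 33.2 and 58.6 on day 70. The day 70 samples were above all others of their diet. From day 43 to day 70 *Tgfa* rose 2.75 times in mean CPM on the standard diet (log2 fold change 1.45, SE 0.39, adjusted p = 0.00416, edgeR) and 2.58 times on GW3965 (1.37, SE 0.39, adjusted p = 0.00848), and the latter was lost without GW3965 day 43 replicate 2 (1.04, adjusted p = 0.0562). Without standard diet day 43 replicate 1, which had an RNA integrity number of 2.6 and 30.2 CPM, the rise on the standard diet was 2.25 on the log2 scale (adjusted p = 5.86e-05, edgeR), and the step from day 22 to day 43, -0.35 with all samples (adjusted p = 0.51), was called as a fall (-1.14, adjusted p = 0.019). With the ribosomal protein share as a term the log2 fold change was -0.06 on the standard diet and 0.22 on GW3965, neither called. Against day 0 the difference at day 70 was 0.68 (SE 0.355, adjusted p = 0.153) on the standard diet and 0.69 (SE 0.355, adjusted p = 0.172) on GW3965. Over the 26 samples *Tgfa* correlated with the summed intestinal stem cell markers at 0.721 and with the macrophage, B cell and T cell markers at -0.777, -0.758 and -0.751.

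Betacellulin (*Btc*, ENSMUSG00000082361.6, chromosome 5, 91357261 to 91402994, - strand), which binds EGFR and ERBB4, had the narrowest range of the ligands. Standard diet samples had 12.4, 14.6, 17.1 and 14.3 CPM on day 0, 8.01, 10.7 and 8.73 on day 22, 34.6, 14.3 and 13.6 on day 43 and 23.1, 22.7 and 19.6 on day 70. On GW3965 it had 11.4, 14.3, 11.7 and 13.9 CPM on day 0, 13, 9.71 and 15.4 on day 22, 17.2, 16 and 21.5 on day 43 and 14.7, 9.10 and 15.4 on day 70. *Btc* rose from day 22 to day 43 on the standard diet (log2 fold change 1.19, SE 0.289, adjusted p = 0.00374, edgeR). Without day 43 replicate 1, the sample with an RNA integrity number of 2.6 and the highest *Btc* value, the log2 fold change was 0.61 (adjusted p = 0.0514), and the step from day 43 to day 70 was called as a rise (0.65, adjusted p = 0.024, edgeR). Without it the standard diet difference from day 0 was also called at day 22 (-0.68, adjusted p = 0.0243) and at day 70 (0.58, adjusted p = 0.0213). At day 70 against day 0 the standard diet groups did not overlap (0.58, SE 0.264, adjusted p = 0.103), and on GW3965 the difference was 0.02 (SE 0.266, adjusted p = 0.962).

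*Egf* (ENSMUSG00000028017.7, chromosome 3, 129677565 to 129755316, - strand), the founding ligand of the family, was the least abundant of the 10 per length in every group but GW3965 day 70. It had 2.50, 4.20, 1.74 and 2.08 CPM on day 0, 2.85, 1.89 and 1.81 on day 22, 2.08, 1.02 and 0.697 on day 43 and 0.789, 2.22 and 1.27 on day 70 on the standard diet. On GW3965 it had 5.50, 4.24, 3.49 and 3.18 CPM on day 0, 1.76, 1.71 and 1.95 on day 22, 0.999, 1.35 and 1.52 on day 43, and 49.0, 1.88 and 1.34 on day 70. The 49.0 CPM came from GW3965 day 70 replicate 1, the sample with 21810 CPM of skeletal muscle markers, against 11.9 and 23.9 CPM in the other two. *Egf* was called from day 43 to day 70 on GW3965 (log2 fold change 3.74, SE 0.898, adjusted p = 0.00245, edgeR), and without that sample the log2 fold change was 0.32 (adjusted p = 0.64). Of 3 replicates of the group, 1 therefore carried the call. Against day 0 the GW3965 difference at day 70 was 2.08 (SE 0.749, adjusted p = 0.0508, edgeR) and it was called without replicate 2 (2.62, adjusted p = 0.00812) or replicate 3 (2.63, adjusted p = 0.00973), fits that keep the sample at 49.0 CPM. Over the 26 samples *Egf* correlated with the skeletal muscle markers at 0.698, and the part of muscle RNA in its value was not tested.

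**Figure D4:**
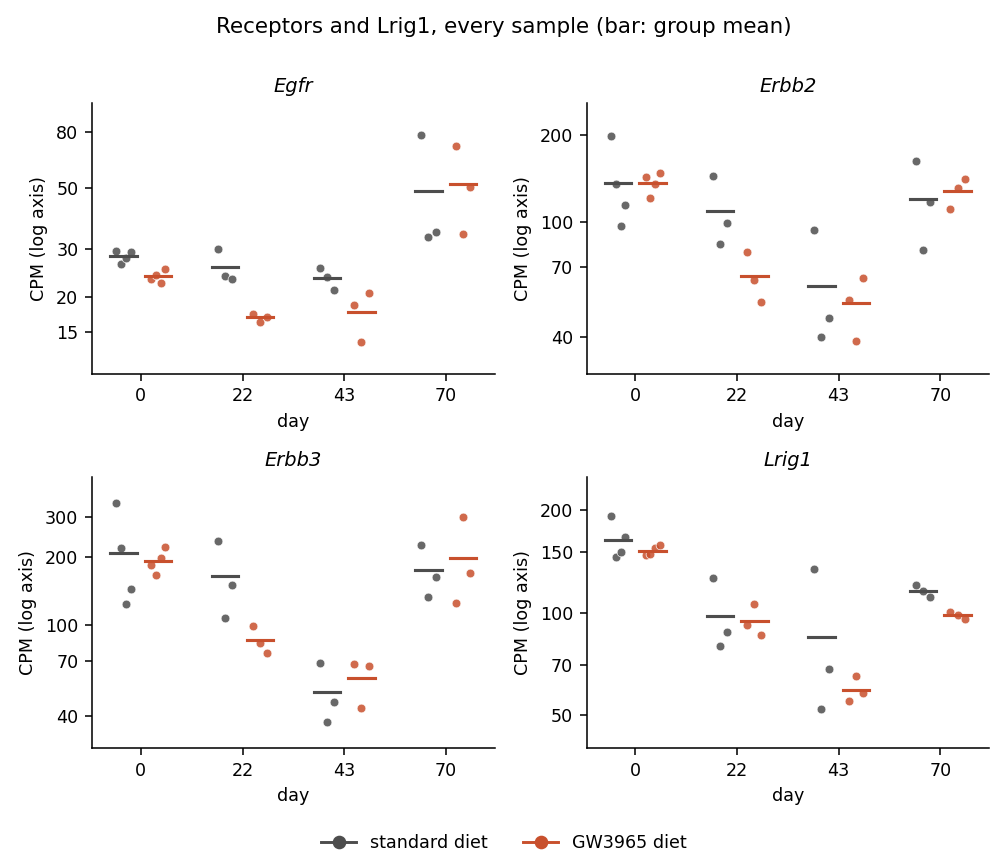
CPM of *Egfr*, *Erbb2*, *Erbb3* and *Lrig1* in each of the 26 samples by diet and day, with the group mean, on a log scale. *Egfr* of day 70 lies above day 0 on both diets, and *Erbb3* is lowest at day 43.

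Among the receptors, *Egfr* (ENSMUSG00000020122.16, chromosome 11, 16752203 to 16918158, + strand), which binds all 6 ligands, passed in neither step up to day 43 and was higher at day 70. The standard diet samples had 29.4, 26.4, 27.8 and 29.2 CPM on day 0, 30.1, 23.9 and 23.4 on day 22, 25.6, 23.7 and 21.3 on day 43 and 78.0, 33.3 and 34.4 on day 70. On GW3965 it had 23.3, 24.2, 22.6 and 25.3 CPM on day 0, 17.4, 16.3 and 17 on day 22, 18.7, 13.7 and 20.7 on day 43 and 70.9, 34.0 and 50.2 on day 70. All GW3965 samples of days 22 and 43 lay below those of day 0 (day 22: -0.50, SE 0.249, adjusted p = 0.157, edgeR). The difference at day 22 was called only with effective length offsets (-0.85, adjusted p = 0.0349) and when only the samples of both groups were fitted (-0.51, adjusted p = 0.00499). The spread at day 0 was small, with a coefficient of variation of 5.02% and 4.85% in the respective diets, and every day 70 sample lay above every earlier sample of its diet. *Egfr* was higher on day 70 than on day 0 by a log2 fold change of 0.78 (SE 0.243, adjusted p = 0.0186, edgeR) on the standard diet and 1.12 (SE 0.243, adjusted p = 0.00262) on GW3965, and higher than on day 43 by 1.04 (SE 0.264, adjusted p = 0.00271) and 1.54 (SE 0.268, adjusted p = 0.000159). With the ribosomal protein share as a term the differences from day 43 were 0.08 (adjusted p = 0.975) and 0.77 (adjusted p = 0.858), neither called. Both standard diet calls were lost without day 70 replicate 1, which had 78.0 CPM (0.25, adjusted p = 0.414, against day 0 and 0.50, adjusted p = 0.0749, against day 43). The standard diet call against day 0 was also lost in 4 of 12 other alternatives. The GW3965 calls held without each sample in turn, with log2 fold changes against day 0 between 0.82 and 1.34. The GW3965 replicate with squamous markers at 8.99 CPM had 34.0 CPM of *Egfr*, the lowest of its group and above the day 0 range of 22.6 to 25.3. Over all samples *Egfr* correlated with the squamous markers at 0.479, with the stem cell markers at 0.616 and with the goblet and B cell markers at -0.731 and -0.715, and the part of these cells was not tested.

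*Erbb2* (ENSMUSG00000062312.5, chromosome 11, 98412470 to 98437716, + strand), the coreceptor without a ligand, fell and then rose on both diets. It had 198.5, 136, 96.9 and 114 CPM on day 0, 144, 84.2 and 99.2 on day 22, 93.4, 40 and 46.5 on day 43 and 163, 79.9 and 118 on day 70 on the standard diet. On GW3965 it had 143, 121, 136 and 148 CPM on day 0, 78.4, 63.0 and 52.7 on day 22, 53.8, 38.7 and 64.1 on day 43 and 111, 132 and 141 on day 70. All 6 GW3965 samples of days 22 and 43 lay below those of days 0 and 70, whereas the standard diet groups overlapped at each step. On GW3965 *Erbb2* fell by 1.08 on the log2 scale from day 0 to day 22 (SE 0.301, adjusted p = 0.0145, edgeR) and rose by 1.29 from day 43 to day 70 (SE 0.318, adjusted p = 0.003). Under the standard diet it fell by 0.86 from day 22 to day 43 (SE 0.315, adjusted p = 0.0392) and rose by 1.00 from day 43 to day 70 (SE 0.316, adjusted p = 0.0122). The fall on the standard diet was lost in 4 of 6 fits that left out a sample, without day 22 replicates 1 or 3 or day 43 replicates 2 or 3, and the rise in 3 of 6, without day 43 replicates 2 or 3 or day 70 replicate 1. The fall on GW3965 was lost without day 22 replicate 3 (-0.95, adjusted p = 0.0892). With the ribosomal protein share as a term both standard diet steps changed sign (0.14 and -0.15) and neither was called. The gene shares only its last bases, 98437708 to 98437716, with *Mien1* on the opposite strand. The strand setting of the counting is not given in the sources used here.

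*Erbb3* (ENSMUSG00000018166.8, chromosome 10, 128567523 to 128589652, - strand), a neuregulin receptor, moved with *Erbb2* over a wider range. The standard diet samples had 345, 218, 124 and 144 CPM on day 0, 235, 108 and 150 on day 22, 68.4, 37.6 and 46.2 on day 43 and 226, 134 and 164 on day 70. The GW3965 samples had 185, 166, 198 and 221 CPM on day 0, 99.1, 84.1 and 75.4 on day 22, 67.4, 43.4 and 66.0 on day 43 and 126, 300.4 and 170 on day 70. Day 43 lay below every other day on both diets, and on GW3965 day 22 lay between day 43 and day 0 with no overlap. *Erbb3* fell by 1.69 on the log2 scale from day 22 to day 43 on the standard diet (SE 0.371, adjusted p = 0.00178, edgeR) and by 1.16 from day 0 to day 22 on GW3965 (SE 0.348, adjusted p = 0.0223). From day 43 to day 70 it rose by 1.78 (SE 0.372, adjusted p = 0.000532) on the standard diet and by 1.75 (SE 0.372, adjusted p = 0.000902) on GW3965. The GW3965 fall was lost without day 22 replicate 2 (-1.14, adjusted p = 0.0664) or replicate 3 (-1.07, adjusted p = 0.105), and the other 3 calls held without each sample in turn. With the ribosomal protein share as a term the day 43 to day 70 differences were 0.65 and 0.84, neither called. At day 70 against day 0 the differences were -0.25 (SE 0.339, adjusted p = 0.617) and 0.05 (SE 0.337, adjusted p = 0.941).

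*Lrig1* (ENSMUSG00000030029.14, chromosome 6, 94604529 to 94700158, - strand), a stem cell marker and brake on ERBB receptors, was highest in untreated colon. Its standard diet values were 191, 145, 151 and 167 CPM on day 0, 126, 79.6 and 87.7 on day 22, 134, 52.2 and 68.6 on day 43 and 121, 115 and 111 on day 70. Its GW3965 values were 147, 148, 154 and 158 CPM on day 0, 92.2, 106 and 86.0 on day 22, 54.9, 65.1 and 58.1 on day 43 and 101, 98.6 and 95.6 on day 70. Every treated sample of both diets had less *Lrig1* than every untreated sample of its diet. By day 22 *Lrig1* fell by 0.74 on the log2 scale on the standard diet (SE 0.221, adjusted p = 0.0373, edgeR) and by 0.68 on GW3965 (SE 0.221, adjusted p = 0.0331), and at day 70 it was lower than at day 0 on GW3965 (-0.63, SE 0.22, adjusted p = 0.0462) and had a difference of -0.50 (SE 0.22, adjusted p = 0.0897) on the standard diet. From day 43 to day 70 it rose by 0.73 on GW3965 (SE 0.234, adjusted p = 0.0176), and the standard diet difference was 0.44 (adjusted p = 0.12). Without standard diet day 43 replicate 1, the sample of RNA integrity number 2.6, *Lrig1* was called on the standard diet as lower at day 43 than at day 22 (-0.70, adjusted p = 0.00664, edgeR) and higher at day 70 than at day 43 (0.94, adjusted p = 0.000224), and both were also called with the RNA integrity number as a term (-0.97 and 1.20). Without that sample the difference at day 70 from day 0 on the standard diet was called too (-0.50, adjusted p = 0.0106). The calls against day 0 with all samples lay close to the threshold: leaving out 1 sample lost the standard diet fall in 4 of 7 fits, the GW3965 fall in 6 of 7 and the GW3965 difference at day 70 in 7 of 7, with log2 fold changes still between -0.61 and -0.75 in those fits. The rise on GW3965 was lost without day 43 replicate 1 (0.67, adjusted p = 0.0618) and with the ribosomal protein share as a term (0.69, adjusted p = 0.869). *Lrig1* correlated with the macrophage markers at -0.79 and the neutrophil markers at -0.786 over 26 samples. It overlaps *Slc25a26* on the opposite strand only from 94604529 to 94604672.

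Over the 26 samples *Erbb2* and *Erbb3* had the highest correlation of any pair of members (Pearson r = 0.948 in log2 CPM), followed by *Areg* and *Hbegf* (0.83), *Erbb2* and *Lrig1* (0.811), *Tgfa* and *Erbb2* (0.788) and *Tgfa* and *Egfr* (0.773). The lowest were *Ereg* with *Lrig1* (-0.539) and *Areg* with *Lrig1* (-0.508). The samples share groups, and 6 of the members share long transcripts, so these are descriptions of the libraries.

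The diets were then compared at each day, with the ribosomal protein share as a covariate. None of the 10 members passed at any day in edgeR: 0 of 10 at days 0, 22, 43 and 70, where 0.0293%, 0.135%, 0.0293% and 1.83% of all genes passed. At an unadjusted p below 0.05 there were 0, 4, 1 and 3 members at those days, beside 1.94%, 9.96%, 8.65% and 18.8% of all genes, and DESeq2 called 0, 0, 0 and 1 (*Egf* at day 70). The largest difference at day 70 was that of *Egf*, 3.48 on the log2 scale (SE 0.946, adjusted p = 0.0591), with 49.0 CPM in the 1 sample rich in skeletal muscle markers and 1.88 and 1.34 CPM in the other GW3965 samples. The self-test on simulated counts recovered 62 of 100 genes changed by a log2 fold of 2 and 19 of 100 changed by 1 between the diets at day 70, so differences of the size seen for most members could be missed.

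**Figure D5:**
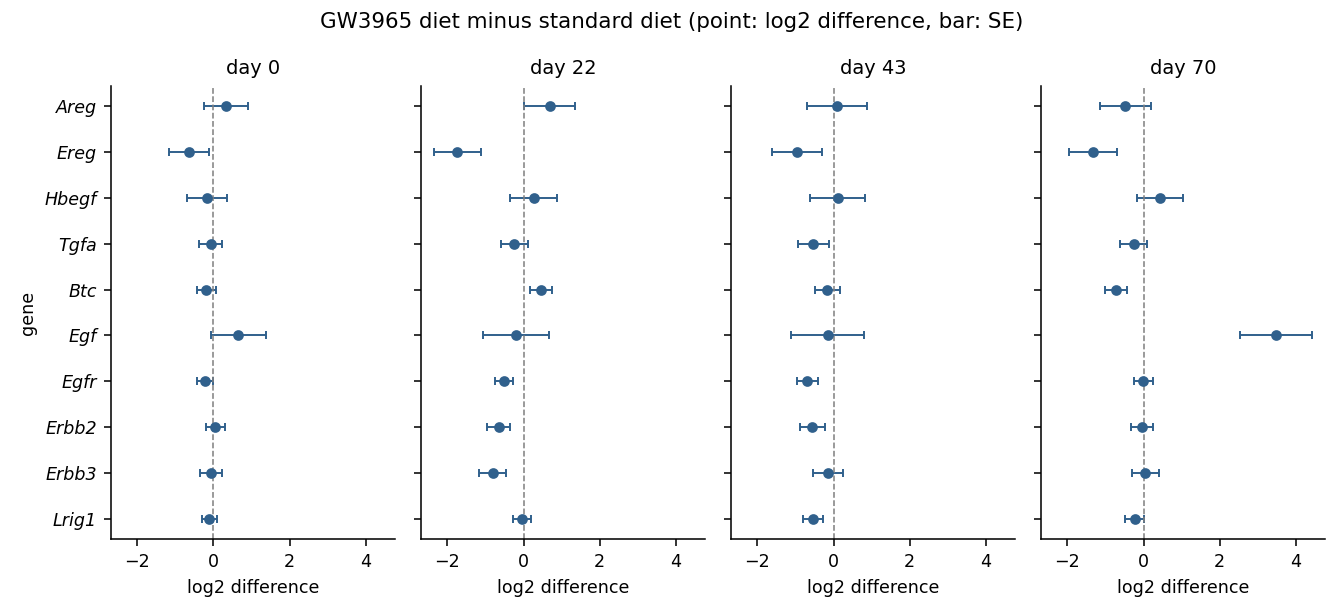
Log2 fold change of GW3965 against standard diet for the 10 members at each day, from edgeR with the ribosomal protein share as a covariate, with bars of 1 SE. None passed an adjusted p of 0.05, and *Ereg* lies below 0 at each day.

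*Ereg* was the ligand with the widest diet differences other than *Egf*. Its log2 fold change of GW3965 against the standard diet was -0.64 (SE 0.53) on day 0, -1.74 (SE 0.621, unadjusted p = 0.0109, adjusted p = 0.305, edgeR) on day 22, -0.96 (SE 0.644) on day 43 and -1.34 (SE 0.629, adjusted p = 0.258) on day 70. At days 43 and 70 all 3 GW3965 samples lay below all 3 standard diet samples, and at day 22 below 2 of 3. *Areg*, its neighbour on chromosome 5, had differences of 0.33 (SE 0.573), 0.69 (SE 0.676), 0.08 (SE 0.783) and -0.48 (SE 0.664) at the same days, with overlapping diets throughout. *Hbegf* and *Tgfa* overlapped between the diets at every day as well, with differences between -0.17 and 0.43 for *Hbegf* and between -0.53 and -0.07 for *Tgfa*. *Btc* at day 70 was lower on GW3965 in every sample (-0.72, SE 0.296, adjusted p = 0.198).

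Of the receptors, *Egfr* was lower on GW3965 in all samples at days 0, 22 and 43, by -0.22 (SE 0.207), -0.52 (SE 0.244, adjusted p = 0.491, edgeR) and -0.69 (SE 0.271, unadjusted p = 0.0188, adjusted p = 0.509), and at day 70 the difference was -0.0032 (SE 0.241). *Erbb2* (-0.66, SE 0.292) and *Erbb3* (-0.81, SE 0.352) did not overlap between the diets at day 22, and *Lrig1* did not at day 70 (-0.24, SE 0.24). In each of these cases GW3965 was the lower diet. Members not overlapping numbered 1 of 10 on day 0 (2.29% of all genes), 3 on day 22 (23.6%), 2 on day 43 (10.9%) and 3 on day 70 (19.1%).

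Whether the diet effect differed between days was tested with 3 interaction terms together. In edgeR 0 of 10 members and 0 of 17063 genes passed, with 1 member (*Egf*, adjusted p = 0.323 in edgeR) and 13.5% of all genes at an unadjusted p below 0.05, and DESeq2 called 0 members. Calls made on only 1 diet, such as *Areg* and *Ereg* at day 70 on the standard diet, are thus not shown to differ between the diets.

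Other genes of the pathway were counted in lists, 58 genes of which 56 were tested (*Nrg3* and *Erbb4* were filtered out). At day 70 against day 0, 15 were higher and 3 lower on the standard diet, where 30.3% of all genes were called and 16.7% were higher, and 13 higher and 1 lower on GW3965 (21.5% and 14.7% of all genes), with medians of 0.25 and 0.26. In either direction the share called was near that of all genes on both diets. Between the diets 0 passed at days 0, 43 and 70 and 1 was lower on GW3965 at day 22, out of 56: *Adam12*, a metalloprotease, by a log2 fold change of -2.67 (adjusted p = 0.0263, edgeR). The largest share was in the response genes of MAPK signalling, of which 8 of 12 on the standard diet (median log2 fold change 1.46) and 6 of 12 on GW3965 (1.09) were higher and 0 lower, beside 16.7% and 14.7% of all genes higher. *Ier3*, an immediate early gene, rose by 2.95 (adjusted p = 0.000117, edgeR) and 2.27 (adjusted p = 0.000979), *Plaur*, the urokinase receptor, by 2.91 (adjusted p = 0.000493) and 1.79 (adjusted p = 0.0168), standard diet first. The cyclin gene *Ccnd1* rose by 1.36 on the standard diet (adjusted p = 0.000809) and had 0.67 on GW3965 (adjusted p = 0.0729), and the transcription factor *Egr3* had 0.30 (adjusted p = 0.726) and rose by 2.00 (adjusted p = 0.0132).

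Among ligand shedding genes, 4 of 7 on the standard diet (median 0.52) and 3 of 7 on GW3965 (0.83) were higher at day 70 than at day 0 and 0 lower, beside the same 16.7% and 14.7% of all genes. The metalloproteases *Adam12* (3.47, adjusted p = 3.06e-05, and 2.51, adjusted p = 0.000357, edgeR, standard diet first) and *Adam17*, the main sheddase of several EGFR ligands (0.51, adjusted p = 0.0169, and 0.96, adjusted p = 0.000242), rose on both diets. So did *Rhbdf2*, the iRhom that carries ADAM17 to the surface (1.19, adjusted p = 0.000252, and 1.27, adjusted p = 0.000173), while *Adam10* passed on the standard diet alone (0.86, adjusted p = 0.0145, against 0.61, adjusted p = 0.0935).

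Of the other ligands 4 were tested. *Epgn*, epigen, an EGFR ligand of squamous epithelia, was higher at day 70 on both diets (3.23, adjusted p = 0.00329, and 3.5, adjusted p = 0.00378, edgeR, standard diet first). Its level was low, with means at days 0 and 70 of 0.072 and 0.712 CPM on the standard diet and 0.046 and 0.594 CPM on GW3965. The squamous markers were high in 5 of the 6 samples of day 70, and their part in the rise of *Epgn* was not tested. *Epgn* was also higher at day 22 than at day 0 (3.187, adjusted p = 0.0105, and 3.255, adjusted p = 0.00781, edgeR). At both of those days the squamous marker sums were in the low range given above. Its highest means were those of day 43, at 1.68 CPM on the standard diet and 2.43 CPM on GW3965. Among the neuregulins, which bind ERBB3 and ERBB4, *Nrg2* fell on the standard diet (-3.16, adjusted p = 0.0382, against 0.43, adjusted p = 0.775), *Nrg1* had 0.59 (adjusted p = 0.404) and 1.40 (adjusted p = 0.0575) and *Nrg4* 0.56 (adjusted p = 0.598) and 0.57 (adjusted p = 0.623). The level of *Nrg2* was also low, with standard diet means of 0.712 CPM at day 0 and 0.073 CPM at day 70.

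Of 15 feedback and negative regulators, 1 was higher and 1 lower on the standard diet and 2 were higher and 0 lower on GW3965, below the 30.3% and 21.5% of all genes called in either direction. The MAPK phosphatase *Dusp4* rose on both (2.38, adjusted p = 0.000472, and 1.99, adjusted p = 0.00237, edgeR), *Dusp5* on GW3965 (0.94, adjusted p = 0.0438), and *Lrig3*, a relative of *Lrig1*, was lower on the standard diet (-1.18, adjusted p = 0.0149). The ERK phosphatase *Dusp6* had 0.84 (adjusted p = 0.0558) and 0.88 (adjusted p = 0.0573), neither called. Of 18 signal transducers, 1 was higher and 1 lower on each diet, also below those shares: the RAS gene *Nras* rose on both (0.70, adjusted p = 0.000853, and 0.74, adjusted p = 0.000685), the PI3K subunit *Pik3ca* fell on the standard diet (-0.79, adjusted p = 0.00462) and the MAPK kinase *Map2k1* on GW3965 (-0.76, adjusted p = 0.0252).

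The genes whose profile over the 26 samples was most like that of a member, by Pearson r of log2 CPM, were looked up in all tested genes. For *Areg* they were *Dusp6* (0.86), *Tuba1c* (0.854) and *Asb6* (0.837), for *Hbegf* *Hs3st1* (0.843), *Dusp6* (0.83) and *Areg* (0.83), and for *Ereg* the cytokine *Il11* (0.86), *Il1rl1* (0.835) and *Gm14548* (0.828). *Egfr* was most like *Myof* (0.961), *Tgfa* most like *Socs6* (0.939), *Btc* most like *Eif4e* (0.815) and *Lrig1* most like *Ppargc1a* (0.936). *Erbb3* was most like *Etl4* (0.958) and *Erbb2* most like *Erbb3* (0.948). *Egf* was most like *Camk2a* (0.919) and *Phkb* (0.897), a likeness that includes the 1 sample at 49.0 CPM.

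The transcripts behind the gene values were few for most members. *Areg*, *Ereg* and *Erbb3* each had 1 transcript in the tables, and 1 protein-coding transcript carried 98.1% of the TPM of *Btc*, 97.7% of *Hbegf* and 92.1% of *Erbb2* over all samples. *Egfr* was split between Egfr-201 (10208 bases, 46.4%) and the shorter Egfr-202 (2943 bases, 37.6%), both protein-coding. The share of Egfr-201 was 41.2% on day 0, 72% on day 43 and 46% on day 70 on the standard diet, and 35%, 67.3% and 49.7% on GW3965, in estimates that were lowest at 31% and highest at 79.5% in single samples. *Lrig1* was carried by the protein-coding Lrig1-202 (74.1%) and by a transcript annotated as a target of nonsense-mediated decay (23.2%), which had 28.8% on day 0, 0.792% on day 43 and 24.8% on day 70 on the standard diet. *Egf*, at its low counts, was spread over 9 transcripts, with 41.2% on Egf-201.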

How the data were processed

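Members and lists were chosen with earlier results of these data known. The authors quantified paired-end reads of 150 bases from polyA RNA with kallisto on the GRCm38 cDNA assembly (tool and build as in the submitters' processing notes and the methods, version not given in the sources used here). They deposited estimated counts (expected counts that need not be whole) and TPM (scaled by kallisto to effective length) for each of 119414 transcripts in each of the 26 samples.

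Of these transcripts 116728 were matched by identifier to 35975 genes of the GENCODE annotation of GRCm38, which left out 0.615% to 0.999% of the counts per sample. Counts were summed by gene and rounded, and TPM was summed by gene. Groups came from the sample titles and labels. Genes were kept with filterByExpr (17063) and scaled with TMM factors, and CPM uses those factors (log2 CPM with a prior count of 2). The edgeR quasi-likelihood F-test was fitted on all samples with 8 groups, for the days without a covariate and for the diets and their interaction with the percentage of counts on 88 Rpl and Rps genes. The study corrected for the percentage of ribosomal RNA, and that gene share stands in for it here. P-values were adjusted by Benjamini-Hochberg over all tested genes. The precision of a value is limited by the total count and by the spread between 3 or 4 samples per group.

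All 10 members are named. Of each pathway list the 3 genes with the smallest p at day 70 against day 0 on each diet are named, except for a result that is not reported here. The likeness of profiles was searched over all tested genes. Replicate numbers are shared between groups, but samples with the same number did not deviate together (mean correlation -0.0661 over 13 pairs), so no block was used. The test was tested on simulated counts of 17063 genes: for day 70 against day 0 on the standard diet it recovered 72 of 100 genes changed by a log2 fold of 2 and 26 of 100 changed by 1, with 8 other calls. Only these genes were changed in the simulation, whereas 30.3% of all genes were called in the data. The recovery in that comparison may therefore differ from these rates. Alternatives changed the covariate, the filter, the scaling, the tool, the day 0 samples and the samples fitted. Tools were R 4.3.3, edgeR 4.0.16, limma 3.58.1, DESeq2 1.42.0 and Python 3.11.15.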

Additional observations from a re-analysis of the deposited data

How the results depend on the processing

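The counts of members called that moved by over 1.5 times are these. With the ribosomal protein share as a term, day 22 against day 0 gave 1 member (*Ereg*) in place of 2 on the standard diet and 0 in place of 3 on GW3965, the steps from day 22 to day 43 and from day 43 to day 70 gave 0 in place of 3 and 4 on the standard diet, and the step from day 43 to day 70 gave 0 in place of 6 on GW3965. Under that term *Tgfa* from day 43 to day 70 on the standard diet reversed (-0.06), as did *Erbb2* from day 22 to day 43 (0.14) and from day 43 to day 70 (-0.15), none of them called. Against the day 0 samples of 22 days of diet alone, the standard diet gave 0 (day 22) and 2 (day 70) and GW3965 0 and 1. Against those of 43 days alone, the standard diet gave 0 and 0 and GW3965 1 and 1. Fitting only the samples of both groups gave 1 in each step into and out of day 43 on the standard diet and 7 at day 22 against day 0 on GW3965. Effective length offsets gave 2 in place of 4 at day 70 against day 0 on the standard diet, and the RNA integrity number as a term gave 1 from day 22 to day 43 on GW3965. For the diets at day 70, 1 member (*Egf*) was called without the ribosomal term, with the RNA integrity number as the term and by DESeq2, and 2 (*Btc* and *Egf*) without the sample of RNA integrity number 2.6. The cause of these changes was not tested.

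With the replicate number as a block, the count at day 22 against day 0 was 0 in place of 2 on the standard diet and 2 in place of 3 on GW3965, and 0 for every diet comparison and the interaction. Only 1 sample of 26 correlated best with its own number.

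With 1 sample left out, member counts ranged from 0 to 2 (standard diet, day 22 against day 0), 2 to 4 (day 43 against 22), 2 to 6 (day 70 against 43) and 1 to 3 (day 70 against day 0), and on GW3965 from 0 to 2, 0 to 0, 5 to 6 and 2 to 3 in the same order. The diet comparison of day 70 ranged from 0 to 1 (1 without GW3965 day 70 replicate 2 or 3), and the other diet comparisons and the interaction stayed at 0. Over single members, 1274 values under the other alternatives kept their side of the threshold, 63 lost a call, 30 gained one and 3 called values reversed. Direction was not compared for values that were uncalled in the main fit and stayed so, nor for the interaction. *Egfr* at day 70 against day 0 on GW3965 was called under each of its 12 other alternatives and without each of its 7 samples in turn. Scaling by library size alone, chosen after seeing the data, moved the median of all genes by -0.31 from day 22 to day 43 and by 0.28 from day 43 to day 70 on the standard diet, and left each member count within 1.5 times.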
